A study of Mus musculus with 36 samples.

Results

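The MCM helicase and the PCNA clamp are the core of the machinery that copies DNA. Their RNA was followed here through 5 states of a mouse heart in which an Akt1 transgene was switched on and off. The members are the 7 genes Mcm2, Mcm3, Mcm4, Mcm5, Mcm6, Mcm7 and Pcna. They were found as all probe sets of the Affymetrix chips 430A and 430B whose platform annotation names 1 of these symbols and no other. These are 7 of the 18193 genes that a probe set of these chips names alone, and they gave 20 of 45137 probe sets without controls, 17 on chip 430A and 3 on chip 430B. Mcm2 had 2 of them, Mcm3 had 5, Mcm4 had 2, Mcm5 had 3, Mcm6 had 3, Mcm7 had 4 and Pcna had 1.

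The 18 hearts came from individual mice, and each was hybridised to both chips, which makes 36 arrays. All mice, the uninduced ones included, carried both transgenes of the strain Tet-myrAkt1/αMHC-tTA (the first character of αMHC is lost in the labels) and are labelled as male. The αMHC promoter drives the tTA activator in heart muscle cells, so the Akt1 transgene is switched on in those cells, whereas the RNA came from whole heart tissue. The 4 hearts before induction were from mice aged 12 weeks. A further 4 hearts were taken after 2 weeks of induction (age 14 weeks), and 4 more after 2 weeks of induction and 2 days of repression (14 weeks and 2 days). After 6 weeks of induction 3 hearts were taken (18 weeks), and 3 others after 6 weeks of induction and 2 weeks of repression (20 weeks). Uninduced hearts older than 12 weeks were not analysed here, so age and time of induction cannot be told apart.

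Mcm2 to Mcm7 encode the 6 different subunits of a ring that is loaded onto DNA at replication origins in G1 phase and unwinds the double helix in S phase. Pcna encodes the sliding clamp, which encircles the new double strand and tethers the DNA polymerases and many repair factors. The genes are well known as markers of cells preparing for or passing through S phase, and many of their promoters are bound by E2F factors. Adult heart muscle cells rarely divide, so replication RNA in whole heart tissue can come from them or from the endothelial cells, fibroblasts and leukocytes between them. In bulk tissue, a change in the number of cells of a type and a change in RNA per cell cannot be told apart.

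The signal is a linear brightness, scaled by the submitters so that the trimmed mean of an array is 500.2 on chip 430A and 122.5 on chip 430B. The Akt1 probe set 1425711_a_at had a signal of 547.8 ± 69.7 (SD, n = 4) before induction, 2878 ± 645 (n = 4) at 2 weeks, 718 ± 21.8 (n = 4) after 2 days of repression, 2365 ± 542 (n = 3) at 6 weeks and 753.2 ± 106 (n = 3) after 2 weeks of repression, which follows the labels. All 8 heart muscle cell markers listed were measured, and their summed signal was between 127353 and 262485 in the 18 hearts. It was 181956 to 238101 before induction and 139739 to 179468 after 2 days of repression, lower without overlap. In each other group the sum overlapped with that of the uninduced hearts. Single genes of the list were called against the uninduced hearts (limma, adjusted p under 0.05). Ryr2 was higher by 0.90 on the log2 scale at 2 weeks, 1.05 after 2 days of repression, 0.62 at 6 weeks and 1.19 after 2 weeks of repression. Pln changed by -0.39 at 2 weeks and -0.71 at 6 weeks. The part of heart muscle cells in the values of the members was not tested. Hearts 3 and 4 before induction stood apart: their signal for Xist, the RNA made from the inactive X chromosome of females, was 2518 and 2170, whereas it was at most 92.8 in the other 16 hearts. Results against the uninduced hearts are therefore also given without these 2 hearts, for the members with each result. For the other genes they are given after them, Ryr2 and Pln excepted. RNA integrity was read from the Actb probe sets, as the 3′ signal over the 5′ signal. On chip 430A this was 3.71 in heart 3 at 6 weeks and between 0.952 and 1.92 in the other hearts.

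Promoters are shown for 5 of the genes, to set the letters before the start of the 3 genes whose RNA rose most beside those of a gene with 1 match and of the clamp, which did not pass the test at 2 weeks. RefSeq promoter entries on build GRCm38.p6 were matched for 6 of the 7 genes, with 2 entries for Mcm7 and none for Mcm4. The lines give the 250 bases before the start of Mcm6 (chr1:128359706-128359955, minus strand), Mcm5 (chr8:75109259-75109508, plus strand), Mcm7 (chr5:138171884-138172133, minus strand), Mcm2 (chr6:88898781-88899030, minus strand) and Pcna (chr2:132253181-132253430, minus strand). Each runs 5′ to 3′ towards the gene, and capitals mark matches to the E2F letters on either strand.
Mcm6: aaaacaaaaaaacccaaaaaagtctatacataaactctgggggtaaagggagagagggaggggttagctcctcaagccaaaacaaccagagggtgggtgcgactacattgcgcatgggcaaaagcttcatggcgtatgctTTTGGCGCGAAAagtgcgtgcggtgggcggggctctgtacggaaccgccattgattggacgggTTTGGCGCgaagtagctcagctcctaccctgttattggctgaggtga
Mcm5: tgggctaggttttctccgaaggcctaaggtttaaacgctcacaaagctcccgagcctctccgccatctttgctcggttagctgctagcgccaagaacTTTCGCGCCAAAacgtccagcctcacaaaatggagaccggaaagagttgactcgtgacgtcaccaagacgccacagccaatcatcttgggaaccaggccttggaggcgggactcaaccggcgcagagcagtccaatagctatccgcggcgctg
Mcm7: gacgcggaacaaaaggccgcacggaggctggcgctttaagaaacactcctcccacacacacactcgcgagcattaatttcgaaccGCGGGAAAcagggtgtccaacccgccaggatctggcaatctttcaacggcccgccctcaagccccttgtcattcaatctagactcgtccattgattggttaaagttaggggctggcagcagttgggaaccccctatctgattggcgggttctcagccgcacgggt
Mcm2: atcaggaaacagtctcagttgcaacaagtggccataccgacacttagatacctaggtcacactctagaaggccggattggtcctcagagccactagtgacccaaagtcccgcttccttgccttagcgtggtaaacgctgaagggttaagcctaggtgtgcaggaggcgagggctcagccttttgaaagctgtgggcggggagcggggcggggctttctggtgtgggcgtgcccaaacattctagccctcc
Pcna: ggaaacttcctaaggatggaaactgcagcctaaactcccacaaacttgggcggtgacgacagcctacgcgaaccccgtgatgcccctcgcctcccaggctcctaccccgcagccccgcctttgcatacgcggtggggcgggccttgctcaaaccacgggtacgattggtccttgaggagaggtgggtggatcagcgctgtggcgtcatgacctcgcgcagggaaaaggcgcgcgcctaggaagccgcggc

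The E2F letters searched on both strands were TTTCCCGC, TTTCGCGC, TTTGCCGC and TTTGGCGC. In these windows Mcm6 held 3 matches, 2 of them overlapping on opposite strands and 1 nearer the start, Mcm5 held 2 that overlap, and the printed entry of Mcm7 held 1. The other entry of Mcm7 (chr5:138171267-138171516, minus strand) and the windows of Mcm2, Mcm3 and Pcna held none of these letters. Among 32851 promoters of the same length, 1.86% held at least 1 match. Over the whole entries of 300 bases, Mcm3 held 2 matches and the printed entry of Mcm7 held 2. The other entries kept their counts, and 2.26% of all promoters held at least 1. The letters CCAAT, the core of the NF-Y site, were found in all 6 genes and in 33.8% of all promoters. The letters TTTGAA, the cell cycle homology region, were found in Mcm2 only of the 6 genes and in 16.0% of all promoters. A match describes letters and not a bound site.

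At 2 weeks of Akt1 induction, each of the 6 helicase genes had at least 1 probe set called higher, with Mcm6, Mcm2 and Mcm5 in front. Pcna did not pass the test. The comparison asks what 2 weeks of transgene expression do to replication RNA in the adult heart. Of the 20 probe sets, 9 were higher in every 2-week heart than in every uninduced heart and none was lower throughout, where 9.08% of all probe sets had no overlap in either direction. The test was limma on log2 signals with an offset, over the 16 member probe sets whose mean signal passed a limit on dim values. It called 7 of the 16 higher and none lower, where 5.01% of all probe sets tested were called. The median log2 change of the 16 was 0.55, against -0.03 over all probe sets tested. Of the 16, Mcm6 1416251_at, Mcm4 1436708_x_at and Mcm3 1449705_x_at had means of 85.6, 96.2 and 99.2 over the 14 hearts outside the 2-week group, under the limit of 100.04, and passed it only through the 2-week hearts. These counts and medians, and the statement that each of the 6 genes had a call, therefore describe the members and support nothing further. Of the 13 others 5 were called. The 7 calls became 2, Mcm6 and Mcm5, without hearts 3 and 4 before induction.

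Mcm6, a helicase subunit, changed most. Its probe set 1416251_at read 13.5, 24.5, 16.8 and 20.5 in the 4 uninduced hearts and 368.7, 336.7, 430.1 and 409.1 in the 4 hearts at 2 weeks. The uninduced hearts were all near the bottom of the scale, and the groups were far apart. The group means were 18.8 ± 4.74 and 386.1 ± 41.7 (SD, n = 4 each), a ratio of 20.5 that rests on a dim denominator, since detection calls were not analysed here. On the log2 scale with the offset, which understates changes of dim probe sets, the rise was 2.66 (SE 0.29, limma adjusted p = 1.57e-05). It was the rise of rank 3 among the 33084 probe sets tested. As the probe set passed the limit on dim values only through the 2-week hearts, this rank and adjusted p describe it and support nothing further. A second probe set, 1438852_x_at, lay under the limit on dim values with 30.9 to 65.2 before induction and 107.5 to 124.2 at 2 weeks, again without overlap. Fitted with no limit, its log2 change was 0.72 (adjusted p = 0.0206). The last, 1447756_x_at on chip 430B, missed the limit of 24.50 by little with a mean of 24.39 over the 18 hearts, and its groups overlapped, 7.96 to 40.9 before induction and 29.8 to 59.1 at 2 weeks.

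Mcm2, another subunit of the ring, rose by its probe set 1434079_s_at. The signals were 150.9, 129.4, 166.3 and 78.1 before induction and 524.8, 428.1, 481.3 and 411.7 at 2 weeks. The lowest 2-week heart, at 411.7, was far above the highest uninduced heart, at 166.3. The log2 change was 1.52 (SE 0.30, limma adjusted p = 0.00383). Without hearts 3 and 4 before induction it was 1.42 with an adjusted p of 0.051, just past the threshold. The other Mcm2 probe set, 1448777_at, overlapped between the groups, with 110.6, 131.2, 43.9 and 157.7 before induction and 166.1, 225.8, 186.4 and 144.8 at 2 weeks. Its log2 change was 0.57 (SE 0.24) with an adjusted p of 0.149.

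Mcm5, which closes the ring beside Mcm2, rose by its chip 430B probe set 1436808_x_at. The signals were 72.7, 43.9, 114.1 and 72.6 before induction and 258.5, 278.2, 219.1 and 202.3 at 2 weeks. The lowest 2-week heart was well above the highest uninduced heart. The log2 change was 1.56 (SE 0.30, limma adjusted p = 0.00801), and it kept its call in each of 19 alternative settings, with adjusted p from 0.00359 to 0.0328. The chip 430A probe set 1415945_at ranged from 25.5 to 190.6 before induction and from 107.2 to 268.4 at 2 weeks, with a log2 change of 0.48 and an adjusted p of 0.36. The last probe set, 1459658_at, was dim, with 13.1 to 50.3 before induction and 5.83 to 35.2 at 2 weeks, and a log2 change of -0.84 with an adjusted p of 0.415. The 3 probe sets of the gene therefore disagree, and the call rests on 1 of them.

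**Figure D1:**
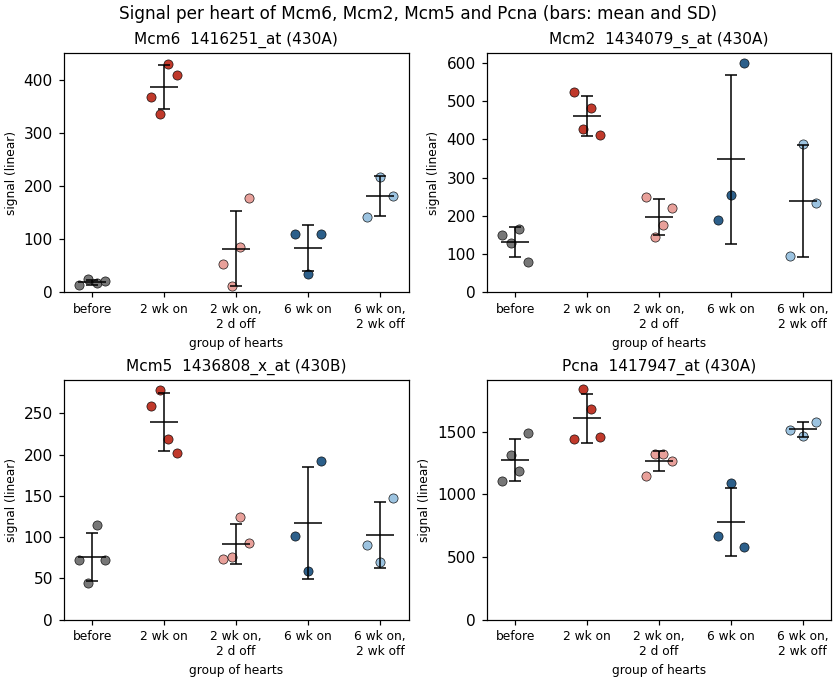
Linear signal per heart (dots) of Mcm6, Mcm2, Mcm5 and Pcna in the 5 groups of hearts, in the order before induction, 2 weeks on, 2 weeks on and 2 days off, 6 weeks on, 6 weeks on and 2 weeks off; long bars are means and whiskers the SD. Mcm6, Mcm2 and Mcm5 stand apart at 2 weeks, Mcm2 at 6 weeks is spread by 1 heart at 600.3, and Pcna is lowest at 6 weeks.

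The remaining subunits Mcm3, Mcm4 and Mcm7 rose less, and each by only some of its probe sets. Mcm3 1420028_s_at read 121.3, 155.2, 126.3 and 165.3 before induction and 244.7, 282.5, 230.9 and 225.2 at 2 weeks, with no overlap. Its log2 change was 0.63 (SE 0.19, limma adjusted p = 0.0448). Mcm4 1436708_x_at read 55.3, 113.2, 101.3 and 84.1 before induction and 122.4, 218.5, 174.9 and 154.6 at 2 weeks, a narrow gap between the groups. Its log2 change was 0.65 (SE 0.20, adjusted p = 0.0457). Mcm7 1438320_s_at read 453.6, 479.6, 444.8 and 416.6 before induction and 755.8, 581.3, 699.2 and 662.9 at 2 weeks. All 4 induced hearts were above the highest uninduced heart, and the log2 change was 0.54 (SE 0.15, adjusted p = 0.0262). The second called probe set of Mcm7, 1416031_s_at, went from 151.0 ± 19.4 to 257.4 ± 59.5 (SD, n = 4 each), which is 0.60 on the log2 scale (adjusted p = 0.0338).

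These 4 calls were close to the threshold. Fitted with no limit on dim values, Mcm3 1420028_s_at, Mcm4 1436708_x_at and Mcm7 1416031_s_at lost theirs (adjusted p = 0.0708, 0.0591 and 0.0567). Mcm7 1438320_s_at kept its call in that fit. Mcm3 1420028_s_at lost its call when any 1 of the 8 hearts compared was left out, with adjusted p from 0.0598 to 0.115. Mcm4 1436708_x_at lost it without heart 1, 3 or 4 before induction or heart 2, 3 or 4 at 2 weeks (0.0671 to 0.11). For Mcm7 1438320_s_at this held without heart 3 or 4 before induction or heart 1, 3 or 4 at 2 weeks (0.0556 to 0.0777), and for 1416031_s_at without heart 1, 3 or 4 before induction or heart 1, 2 or 3 at 2 weeks (0.0555 to 0.107). The count of 7 calls fell to between 3 and 6 as single hearts were left out, and to 4 or fewer when any heart other than heart 2 before induction was left out. Of 10 fibroblast genes 4 were called higher at 2 weeks and 1 lower (1 and 0 without hearts 3 and 4 before induction, and 2 and 1 without heart 2 of that group), and their summed signal overlapped, 38370 to 47933 against 40771 to 51653 before induction. Their part in the values of the members was not tested.

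The other probe sets of these genes differed among themselves at 2 weeks. Mcm4 1416214_at read 313.4 ± 103 before induction and 335.3 ± 48.5 at 2 weeks, and Mcm7 1416030_a_at read 406.3 ± 78.3 and 401.5 ± 95.2 (SD, n = 4 each). Mcm7 1439269_x_at read 148.2 ± 27.1 and 124.2 ± 12.8. Mcm3 1426653_at and 1449705_x_at had log2 changes of 0.23 (adjusted p = 0.689) and 0.61 (adjusted p = 0.165), the latter about the size of the called change of 0.63 but with overlapping groups. Mcm3 1420029_at and 1426652_at lay under the limit on dim values. The latter read 9.1 to 28.1 before induction and 30.8 to 86.5 at 2 weeks, higher without overlap, and fitted with no limit its log2 change was 0.75 (adjusted p = 0.0483). In the names of Affymetrix probe sets, _s_at marks probes shared by several transcripts and _x_at probes that may bind unrelated ones. Of the 7 probe sets called at 2 weeks 6 carried such a suffix, and of the 9 not called 2 did. Whether cross-binding moves with these values was not tested.

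**Figure D2:**
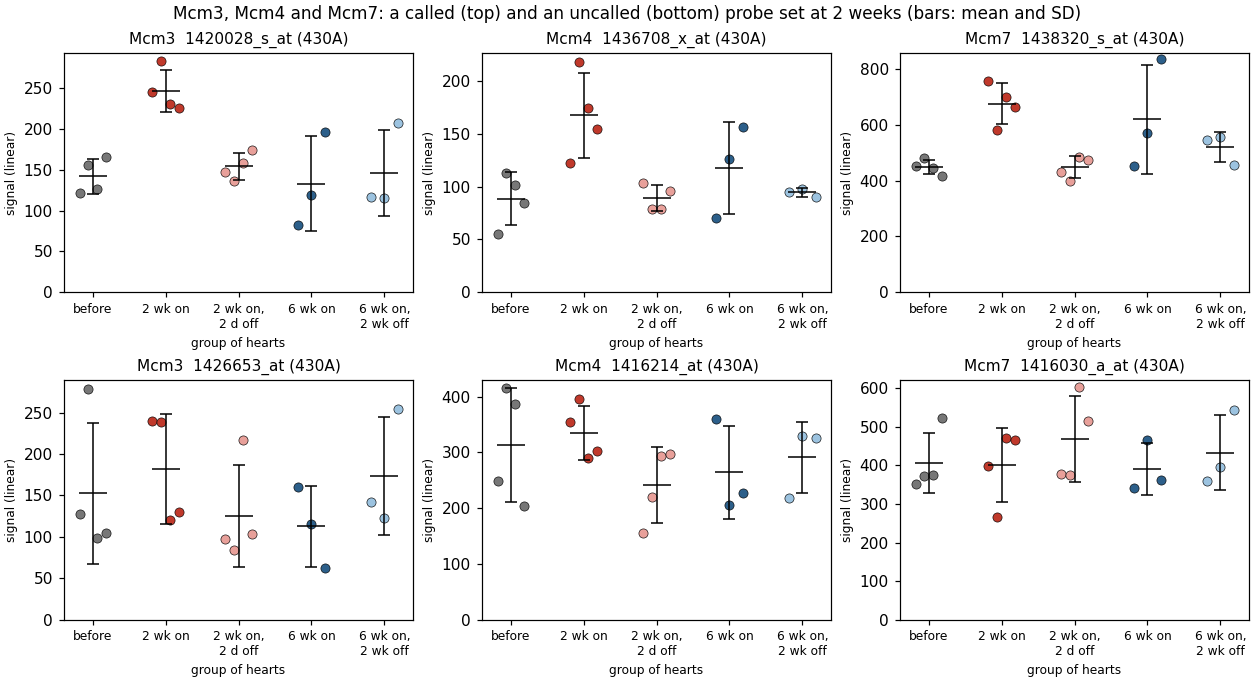
Linear signal per heart (dots, with mean and SD) of Mcm3, Mcm4 and Mcm7 in the 5 groups, for a probe set called at 2 weeks in the top row and one not called in the bottom row. In the top row the 2-week hearts lie above the uninduced hearts without overlap, and in the bottom row the groups overlap.

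Pcna, the clamp, had the signals 1105, 1313, 1188 and 1488 before induction and 1443, 1844, 1685 and 1456 at 2 weeks. The highest uninduced heart lay above 2 of the 2-week hearts. The log2 change was 0.33 (SE 0.15) with an unadjusted p of 0.0435 and a limma adjusted p of 0.2. The clamp thus did not pass the test at 2 weeks, and whether its change differs from those of the helicase genes was not tested.

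After 2 days of repression the helicase RNA was lower again in the same probe sets that led the rise. Against the 2-week hearts, limma called 5 of the 16 probe sets lower and none higher, those of Mcm6, Mcm5, Mcm2, Mcm4 and Mcm7, where 9.73% of all probe sets tested were called. Of the 20 probe sets 8 were lower without overlap and none higher, against 15.7% of all probe sets in either direction. The comparison shares its 2-week hearts with the one before, so the 2 sets of changes are not independent. Mcm6 1416251_at, Mcm4 1436708_x_at and Mcm3 1449705_x_at passed the limit on dim values only through these 2-week hearts, so a fall from them is built into the choice and the count supports nothing further. Of the 13 others 3 were called.

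Mcm6 read 54.0, 12.0, 85.3 and 178.1 after 2 days of repression. All were below the lowest 2-week heart of 336.7, but they spread over more than the uninduced hearts did, and 1 of them lay below the lowest uninduced heart. The log2 change from 2 weeks was -1.87 (SE 0.29, limma adjusted p = 0.000478). Mcm5 1436808_x_at read 73.6, 75.3, 124.9 and 93.0, with log2 change -1.29 (SE 0.30, adjusted p = 0.0239), and only 1 of its hearts exceeded the highest uninduced heart. Mcm2 1434079_s_at read 250.2, 143.6, 176.0 and 221.1, and 3 of the 4 lay above the highest uninduced heart, with a log2 change of -1.06 (SE 0.30, adjusted p = 0.0195). Mcm4 1436708_x_at changed by -0.63 (adjusted p = 0.0317) to 89.2 ± 12.2, and Mcm7 1438320_s_at by -0.54 (adjusted p = 0.0146) to 447.5 ± 39.8 (SD, n = 4 each). Mcm3 1420028_s_at had a log2 change of -0.54 with an adjusted p of 0.055, and Pcna one of -0.33 with an adjusted p of 0.138. Pcna read 1148, 1321, 1323 and 1269 and did not overlap with the 2-week hearts.

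The Actb ratio moved with these groups. It was between 1.26 and 1.92 at 2 weeks and between 1.04 and 1.18 after 2 days of repression, without overlap. With the ratio as a covariate, 2 of the 16 probe sets were called in place of 5. Mcm6 kept its call. The fall was then 0.77 for Mcm2 1434079_s_at, 0.96 for Mcm5 1436808_x_at, 0.56 for Mcm4 1436708_x_at and 0.37 for Mcm7 1438320_s_at on the log2 scale, and these calls were lost with adjusted p from 0.0519 to 0.107. Leaving out single hearts left 2 to 4 calls. These were 3 without heart 1, 2 or 3 at 2 weeks, 2 without heart 2 after 2 days of repression and 3 without heart 4 of that group. Of 10 macrophage and leukocyte genes 2 were called higher after 2 days of repression, with a summed signal of 6629 to 10119 against 6259 to 6757 at 2 weeks. None of the 2 was called without heart 1, 3 or 4 at 2 weeks or heart 1 or 3 after 2 days of repression, and 1 without heart 2 of the latter. Their part in the values of the members was not tested.

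Set against the uninduced hearts, the hearts after 2 days of repression had no member probe set past the threshold, where 3.23% of all probe sets tested were called by limma and 5919 of 33084 had an unadjusted p under 0.05. Mcm6 had a mean of 82.3 ± 70.5 (SD, n = 4) against 18.8 ± 4.74, a log2 change of 0.79 (SE 0.29) with an unadjusted p of 0.0142 and an adjusted p of 0.123. It was higher in 3 of 4 hearts than in every uninduced heart. Mcm2 1434079_s_at had a log2 change of 0.46 with an adjusted p of 0.413, Mcm5 1436808_x_at 0.27 with 0.717, and Pcna 0.00 with 0.995. A probe set past the threshold appeared only without heart 2 after 2 days of repression, when 1 was called.

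At 6 weeks of induction, Mcm6 and Mcm2, each by 1 probe set, were called higher than in the uninduced hearts and Pcna was called lower. These are 3 of the 16 probe sets, where 13.2% of all probe sets tested were called. Of the 20 probe sets 2 were higher and 1 lower without overlap, where 17.3% of all probe sets had no overlap in either direction. Both shares of the members are near the background. The other 13 probe sets, all of the helicase, had log2 changes from -0.36 (Mcm2 1448777_at, adjusted p = 0.337) to 0.48 (Mcm5 1436808_x_at, adjusted p = 0.456), and whether the helicase differs from the clamp was not tested. Pcna read 667.0, 1091 and 579.5, below every uninduced heart (1105 to 1488), although the highest missed the lowest of those by little. Its log2 change was -0.72 (SE 0.16, limma adjusted p = 0.00448). Without hearts 3 and 4 before induction and heart 3 at 6 weeks, left out together, it was -0.47 with an adjusted p of 0.137. Mcm6 read 109.1, 34.1 and 109.0, which is 0.90 higher on the log2 scale (SE 0.32, adjusted p = 0.0478). Leaving out any 1 heart before induction, or heart 1 or 3 at 6 weeks, ended this call, with adjusted p from 0.0683 to 0.166. So did an offset of 20% of the trimmed mean (0.0631), no limit on dim values (0.0653) and the Actb ratio as a covariate (0.1). Fitted with no limit, the other Mcm6 probe sets 1438852_x_at and 1447756_x_at had log2 changes of 0.08 and 0.21 (adjusted p = 0.839 and 0.86). Mcm2 1434079_s_at read 190.3, 253.6 and 600.3, which is 1.03 higher on the log2 scale (SE 0.32, adjusted p = 0.0301). The heart at 600.3 is heart 3, the one with the high Actb ratio, and without it the change was 0.60 with an adjusted p of 0.203. That call was also lost without heart 2 or heart 4 before induction (adjusted p = 0.0559 and 0.0884), and in the fit with the replicate number as a block (0.052). The 3 calls became 1, that of Pcna, without heart 2 or 4 before induction, without heart 3 at 6 weeks or without hearts 3 and 4 before induction.

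Between 2 and 6 weeks of continued induction, Mcm6 and Pcna fell, and so did 1 probe set each of Mcm2 and Mcm3. Against 2 weeks, limma called these 4 of the 16 probe sets lower and none higher, where 4.06% of all probe sets tested were called. No probe set of Mcm4, Mcm5 or Mcm7 was called, and those of Mcm7 had log2 changes from -0.37 to -0.0050. The same 3 probe sets passed the limit only through the 2-week hearts, Mcm6 among them, so the count supports nothing further, and 3 of the 13 others were called. Mcm6 fell by 1.76 on the log2 scale (SE 0.32, adjusted p = 0.00278), from 386.1 ± 41.7 (SD, n = 4) to 84.1 ± 43.3 (n = 3). Pcna fell by 1.04 (SE 0.16, adjusted p = 0.00103), from 1607 ± 193 (n = 4) to 779.2 ± 274 (n = 3). Neither gene overlapped between the groups, and both calls were kept in every alternative run (16 and 17), the highest adjusted p being 0.0167 for Mcm6 and 0.0365 for Pcna. Of the 20 probe sets 6 were lower without overlap and none higher, where 12.4% of all probe sets had no overlap in either direction. That count describes the members and supports nothing further.

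Mcm3 1420028_s_at fell by 0.74 (adjusted p = 0.0339) to 82.3, 119.2 and 196.2, and Mcm2 1448777_at by 0.93 (adjusted p = 0.0342) to 65.6, 83.0 and 63.8. These 2 calls were close to the threshold. The first was lost without any 1 heart at 2 weeks or without heart 1 or 2 at 6 weeks (adjusted p = 0.0519 to 0.171), and the second without heart 2 or 3 at 2 weeks or any 1 heart at 6 weeks (0.0547 to 0.0968). The brighter probe set of Mcm2, 1434079_s_at, had a log2 change of -0.49 with an adjusted p of 0.407. Mcm5 1436808_x_at read 100.9, 58.6 and 191.9, all below the 2-week hearts, with a log2 change of -1.09 (SE 0.32) and an adjusted p of 0.093. The 4 calls became 2 without heart 2 or 3 at 2 weeks or without heart 1 or 2 at 6 weeks.

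Genes in the lists for other cell types moved with the 6-week group. Whether they changed in those cells was not tested. Of the 10 endothelial genes listed 4 were called lower at 6 weeks than before induction and none higher, among them Emcn (1232 ± 102 to 522.0 ± 80.4, SD, n = 4 and 3) and Pecam1 (987.8 ± 125 to 495.0 ± 228). The summed signal of the list was 7272 to 9934 at 6 weeks and 10083 to 11334 before induction, with no overlap. For the 2 erythroid genes measured of 4 listed the sum was 313.7 to 620.6 and 822.6 to 1527. None of the 10 endothelial genes was near 0. Of 10 fibroblast genes 4 were called higher and none lower, Col1a1, Col1a2, Mfap5 and Pi16, by 1.12 to 1.47 on the log2 scale, with sums of 44522 to 52589 at 6 weeks and 40771 to 51653 before induction that overlapped. Of the 8 genes in the smooth muscle and pericyte list Abcc9 fell by 2.77 (limma adjusted p = 9.77e-09) and Kcnj8 by 0.94 (adjusted p = 0.000141). Cnn1 of that list rose by 1.96 (adjusted p = 0.00048), and the sums overlapped, 12378 to 16373 against 12936 to 16053. Without hearts 3 and 4 before induction 2 of the 4 endothelial calls were left, Emcn and Pecam1, also 2 without heart 1 at 6 weeks, and the fibroblast and smooth muscle calls were all kept. The part of these cells in the values of the members was not tested.

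Switching the transgene off after 6 weeks was followed by a higher clamp signal. Against 6 weeks, limma called 1 of the 16 probe sets higher, that of Pcna, and none lower, where 10.9% of all probe sets tested were called. Pcna read 1513, 1466 and 1581 after 2 weeks of repression, all above the highest 6-week heart of 1091. The log2 change was 0.97 (SE 0.17, adjusted p = 0.00104), and it kept its call in each of 16 alternatives. The Actb ratio on chip 430A moved with these groups too. It was 1.24 to 3.71 at 6 weeks and 0.952 to 1.22 after 2 weeks of repression, without overlap. With the ratio as a covariate, 1582 of all probe sets were called in place of 3605, and Pcna was still called. Mcm6 read 142.1, 217.7 and 181.9, again all above the 6-week hearts, with a log2 change of 0.83 (SE 0.34) and an adjusted p of 0.0938. Mcm2 1448777_at, at 99.1, 162.2 and 201.9, did not overlap with the 6-week hearts either, and its log2 change was 0.73 with an adjusted p of 0.0677. Of the 20 probe sets these 3 were higher without overlap and none was lower. Over all probe sets 11.5% were higher throughout and 22.0% had no overlap in either direction, so the share of the members is near the background. The other 13 of the 16 probe sets had adjusted p of 0.271 or more. Without heart 1 after 2 weeks of repression the calls became 2.

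Endothelial and leukocyte markers moved in this comparison too. After 2 weeks of repression 4 of 10 endothelial genes and 2 of 10 macrophage and leukocyte genes were called higher than at 6 weeks and none lower. The endothelial sum was 10460 to 11967 and the macrophage sum 7294 to 10186, against 5757 to 7070 at 6 weeks for the latter. The groups did not overlap in either sum. The 4 endothelial calls became 2 without heart 1 at 6 weeks or heart 2 after repression. The 2 leukocyte calls became 0 without heart 3 at 6 weeks and 1 without heart 1 or 2 after repression. Their part in the rise of Pcna was not tested.

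After late repression Mcm6 was above the uninduced level by 1 probe set, the only member probe set called. After 6 weeks of induction and 2 weeks of repression, limma called 1 of the 16 probe sets higher than before induction and none lower, where 2.57% of all probe sets tested were called. It was Mcm6 1416251_at, with 180.6 ± 37.8 (SD, n = 3) against 18.8 ± 4.74 (n = 4). The log2 change was 1.73 (SE 0.32, adjusted p = 0.00474), the rise of rank 28 among 33084 probe sets. It kept its call in each of 17 alternatives, with adjusted p of at most 0.0391, also without the 2 uninduced hearts that stood apart. The second Mcm6 probe set, 1438852_x_at, differed: it read 47.1, 90.2 and 45.8. Fitted with no limit on dim values, it had a log2 change of 0.13 with an adjusted p of 0.818. In the same fit the last, 1447756_x_at on chip 430B, had a log2 change of -0.07 with an adjusted p of 0.963. Pcna was at 1520 ± 57.7 against 1274 ± 166, a log2 change of 0.25 with an adjusted p of 0.437. Mcm2 1434079_s_at read 95.9, 388.0 and 234.6, a spread that covers the uninduced range, with an adjusted p of 0.383.

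**Figure D3:**
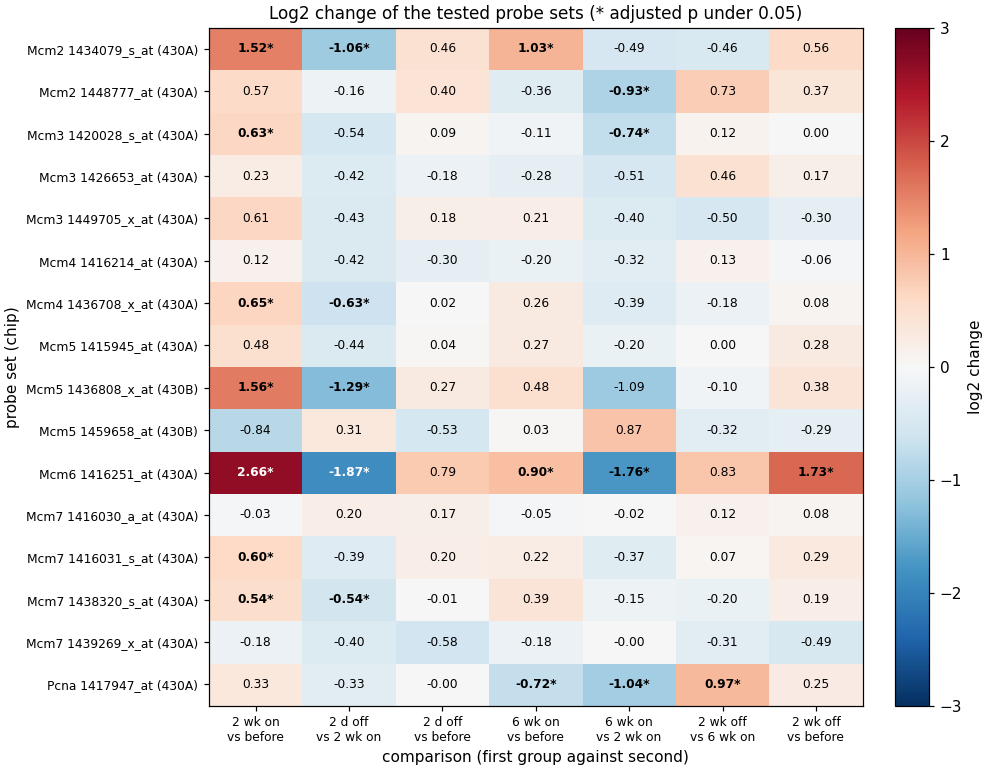
Log2 change (colour and number) of the 16 member probe sets past the limit on dim values, in rows, for 7 comparisons, in columns, each the first group against the second; a star marks an adjusted p under 0.05 in limma. The first column is mostly positive and the second mostly negative, with Mcm6 at 2.66 and -1.87, and Pcna is called only in the 3 columns that involve 6 weeks on against another time.

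The change on late repression differed from that on early repression for 2 members. The test subtracts the change from 2 weeks to 2 days of repression from the change from 6 weeks to 2 weeks of repression, so the length of repression differs along with that of induction. Limma called 2 of the 16 probe sets, where 0.469% of all probe sets tested were called. Mcm6 1416251_at, Mcm4 1436708_x_at and Mcm3 1449705_x_at passed the limit on dim values only through the 2-week hearts, which this test uses. The count therefore supports nothing further, and of the 13 others 1 was called, that of Pcna. Mcm6 had -1.87 in the early and 0.83 in the late repression, a difference of 2.70 (SE 0.45, adjusted p = 0.00551). Pcna had -0.33 and 0.97, a difference of 1.30 (SE 0.23, adjusted p = 0.0105). Both were called in every alternative in which they were tested (23 and 24), with adjusted p of at most 0.0235 and 0.0334. Mcm5 1436808_x_at had a difference of 1.19 (SE 0.46) with an adjusted p of 0.406, and Mcm2 1434079_s_at one of 0.60 (SE 0.46) with 0.624. The second Mcm6 probe set, 1438852_x_at, fitted with no limit on dim values, had a difference of 0.74 with an adjusted p of 0.283. In the same fit Mcm6 1447756_x_at had a difference of 0.26 with an adjusted p of 0.956. Among genes of the cell type lists, Abcc9 (smooth muscle and pericyte list) had a difference of 1.97 (adjusted p = 0.000936). Emcn (endothelial list) had one of 1.06 (adjusted p = 0.00431). Whether these 2 genes changed in the cells of their lists was not tested. Their part in the values of the members was not tested.

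Around the helicase stand the factors that load and start it, and none of those listed was called at 2 weeks by its brightest probe set. Lists for 8 steps were counted in that way, and 6.59% of 14650 genes were called at 2 weeks. The members above were counted by any of their probe sets, so the counts are not alike. By the rule of the lists Mcm4 1416214_at, Mcm5 1415945_at and Pcna were not called either (limma adjusted p = 0.79, 0.36 and 0.2). That rule passes over Mcm5 1436808_x_at on chip 430B, which was called. In lists of 11 to 13 genes an absence of calls is near the share of all genes. Of 11 measured origin loading genes (the origin recognition complex, Cdt1 and others), none was called at 2 weeks. The same held for 12 genes of helicase activation, such as Cdc45 and the GINS subunits, and for 13 clamp loaders and partners of PCNA, such as the Rfc subunits, Fen1 and Lig1. Cdt1 had a mean of 265.3 ± 47.3 before induction and 311.2 ± 60.9 at 2 weeks, and Cdc45 136.4 ± 56.2 and 135.4 ± 90.6 (SD, n = 4 each). The median log2 changes of the 3 lists were 0.09, 0.00 and 0.16, against -0.02 over all genes. Cdc6, Cdc7 and Dbf4 had no probe set past the limit on dim values.

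Single genes of replication forks and nucleotide supply were called at 2 weeks. Rpa1, a subunit of the single-strand binding protein, rose by 0.62 on the log2 scale (limma adjusted p = 0.037), the 1 called of 11 polymerase and single-strand binding genes. Rrm2, the small subunit of ribonucleotide reductase, rose by 0.66 (adjusted p = 0.0108), from 144.8 ± 15.5 to 256.8 ± 21.2 (SD, n = 4 each). Nme1, a nucleoside diphosphate kinase, rose by 1.15 (adjusted p = 0.000627), and these are the 2 called of 7 nucleotide genes. Pola2, a subunit of DNA polymerase alpha, was not called at 2 weeks but fell by 0.89 after 2 days of repression (adjusted p = 0.00501), from 332.1 ± 68.8 to 157.9 ± 43.6.

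Of 18 measured genes of mitosis and proliferation, 7 were called higher at 2 weeks and none lower. They were Ccnb2, Mki67, Birc5, Cdk1, Top2a, Prc1 and Anln. Mki67, which encodes the proliferation marker Ki-67, read 112.4, 60.4, 57.8 and 91.1 before induction and 435.9, 411.7, 395.4 and 276.0 at 2 weeks, a rise of 1.72 on the log2 scale (limma adjusted p = 0.00156). Ccna2, a cyclin of S phase and G2, rose by 0.82 (adjusted p = 0.00441). Rbl2, a pocket protein that represses cell cycle genes in resting cells, fell by 0.66 (adjusted p = 0.00499). These 2 were the only ones called of 21 measured genes of G1/S control. Ccnd1, the G1 cyclin, had 1346 ± 386 before induction and 2023 ± 322 at 2 weeks, with an adjusted p of 0.097. The 7 mitosis calls became 5 to 8 as single hearts were left out, and 1 with the limit on dim values at 50% of the trimmed mean.

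Without hearts 3 and 4 before induction, fewer of the calls at 2 weeks were left. Of the 7 mitosis genes Mki67 (1.67, adjusted p = 0.029), Cdk1 (1.44, adjusted p = 0.039) and Top2a (0.96, adjusted p = 0.0388) kept their calls on the log2 scale. Ccnb2 (1.52), Birc5 (1.31), Prc1 (1.13) and Anln (0.86) kept their direction with adjusted p from 0.0519 to 0.142. Nme1, Ccna2 and Cdkn1a, a CDK inhibitor, were still called, and Rrm2 (0.69, adjusted p = 0.0773), Rpa1 (0.62, adjusted p = 0.174) and Rbl2 (-0.66, adjusted p = 0.0533) were not. Rpa1 also lost its call without heart 2 or 4 before induction or heart 1, 3 or 4 at 2 weeks.

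After 2 days of repression 10.6% of all genes were called against 2 weeks. Mki67 was the only 1 of the 18 mitosis genes called, falling by 1.03 (limma adjusted p = 0.0236), a call lost without any 1 of 5 of the 8 hearts. Against the uninduced hearts, where 3.81% of genes were called, 3 of the 18 were higher, namely Top2a by 1.03, Ccnb2 by 1.15 and Cdk1 by 1.29. Cdk1, the kinase that starts mitosis, was at 373.1 ± 183 after 2 days of repression and 357.1 ± 89.5 at 2 weeks (SD, n = 4 each). Orc5 of the origin recognition complex fell by 0.65 from 2 weeks (adjusted p = 0.0148), and Nme1 by 0.94 (adjusted p = 0.00184). In G1/S control, the pocket protein gene Rb1 fell by 0.55 (adjusted p = 0.0072), while Rbl2 rose by 0.41 (adjusted p = 0.0407) and Tfdp2, a dimer partner of E2F factors, by 0.48 (adjusted p = 0.0371). The calls of Rbl2 and Tfdp2 were each lost without any 1 of 7 of the 8 hearts. Against the uninduced hearts, Tfdp2 was higher after 2 days of repression by 0.67 (adjusted p = 0.0067), and the CDK inhibitor gene Cdkn1c lower by 0.84 (adjusted p = 0.0116). Without hearts 3 and 4 before induction Cdk1 and Cdkn1c were still called, and Top2a, Ccnb2 and Tfdp2 were not (adjusted p = 0.111, 0.238 and 0.0628).

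At 6 weeks the CDK inhibitor Cdkn1a, which encodes p21, a protein that binds both cyclin-CDK complexes and PCNA, changed most among the genes listed. It read 459.7, 320.3, 186.8 and 306.3 before induction, 951.8, 947.6, 893.2 and 735.1 at 2 weeks, and 4341, 3588 and 2320 at 6 weeks. The 3 groups did not overlap. The log2 change from before induction was 1.38 at 2 weeks (limma adjusted p = 0.000336) and 3.24 at 6 weeks (3.58e-08). After 2 weeks of repression it read 522.4, 562.0 and 465.4, a change of -2.57 (adjusted p = 3.12e-06). Its change on late repression differed from that on early repression by -1.74 on the log2 scale (adjusted p = 0.0108), where 0.642% of genes were called.

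Other genes at 6 weeks moved in both directions, with 15.7% of genes called against the uninduced hearts. None of the 18 mitosis genes was called. Of the 11 polymerase and single-strand binding genes Rpa1 rose by 1.01 (limma adjusted p = 0.00134), while Rpa2, its partner subunit, fell by 1.15 (adjusted p = 0.00243) and Pold2, a subunit of DNA polymerase delta, by 0.60 (adjusted p = 0.00338). In helicase activation, Mcm10 fell by 0.42 (adjusted p = 0.046) and Topbp1 by 0.54 (adjusted p = 0.0433), 2 of 12. Orc3 was higher by 0.41 (adjusted p = 0.0271), the 1 called of 11 origin loading genes, and the mismatch repair gene Msh6 lower by 0.54 (adjusted p = 0.0349), the 1 called of 13 clamp loaders and partners. Of the nucleotide genes Nme1 rose by 1.27 (adjusted p = 0.000206) and Rrm2b fell by 0.36 (adjusted p = 0.0429). Rb1 rose by 0.55 (adjusted p = 0.00977), and Cdkn1c fell by 0.93 (adjusted p = 0.00286). Mycn, a transcription factor of the Myc family, fell by 0.93 (adjusted p = 0.00493), and Rbl2 by 1.22 (adjusted p = 1.84e-05). Without hearts 3 and 4 before induction the calls of Mcm10, Topbp1, Orc3, Msh6 and Rrm2b were lost, with adjusted p from 0.0722 to 0.24, and the other genes named at 6 weeks against the uninduced hearts, Cdkn1a among them, kept theirs.

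Against the 2-week hearts, where 5.17% of genes were called, 5 of the 18 mitosis genes were lower at 6 weeks and none higher. They were Mki67, Cdk1, Prc1, Anln and Top2a, with log2 changes from -0.80 to -1.39. They became 0 without heart 1 at 6 weeks and 3 without heart 2 of either group. Mycn was lower by 1.37 on the log2 scale (limma adjusted p = 0.00103), with 307.2, 364.9, 240.1 and 227.8 at 2 weeks and 48.4, 79.7 and 114.7 at 6 weeks. Ccna2 fell by 0.83 (adjusted p = 0.00897). Rbl2 fell by 0.56 (adjusted p = 0.0258). Rpa2 fell by 0.91 (adjusted p = 0.0269) and Pold2 by 0.51 (adjusted p = 0.0224), the 2 called of 11 polymerase and single-strand binding genes.

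On late repression, where 12.7% of genes were called, Pold2 rose by 0.82 (limma adjusted p = 0.000677), Rpa2 by 1.14 (adjusted p = 0.00462) and Mycn by 1.30 (adjusted p = 0.0009). Rbl2 rose by 0.98 (adjusted p = 0.000457). Nme1 fell by 1.42 (adjusted p = 0.000229), Rpa1 by 0.63 (adjusted p = 0.0408) and Rb1 by 0.46 (adjusted p = 0.0404). The change of Mycn on late repression exceeded that on early repression by 1.49 (adjusted p = 0.0235), the 1 of 21 G1/S genes called in that test, and lost its call without any 1 of 4 of the 14 hearts. Of the 18 mitosis genes 3 were called higher, Anln, Cenpf and Cdk1, and none lower, and none was left without heart 1 at 6 weeks or heart 2 after repression. Against the uninduced hearts 2.71% of genes were called, and Cdk1 was the only mitosis gene of the 18 among them, by 1.24 (adjusted p = 0.0493), while none of the origin loading, helicase activation, clamp, polymerase or nucleotide genes was called in that comparison. Tfdp2 was higher there by 0.55 (adjusted p = 0.0354), and Cdkn1c lower by 0.77 (adjusted p = 0.0354). None of these 3 calls was left without hearts 3 and 4 before induction (adjusted p = 0.0836 to 0.153).

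**Figure D4:**
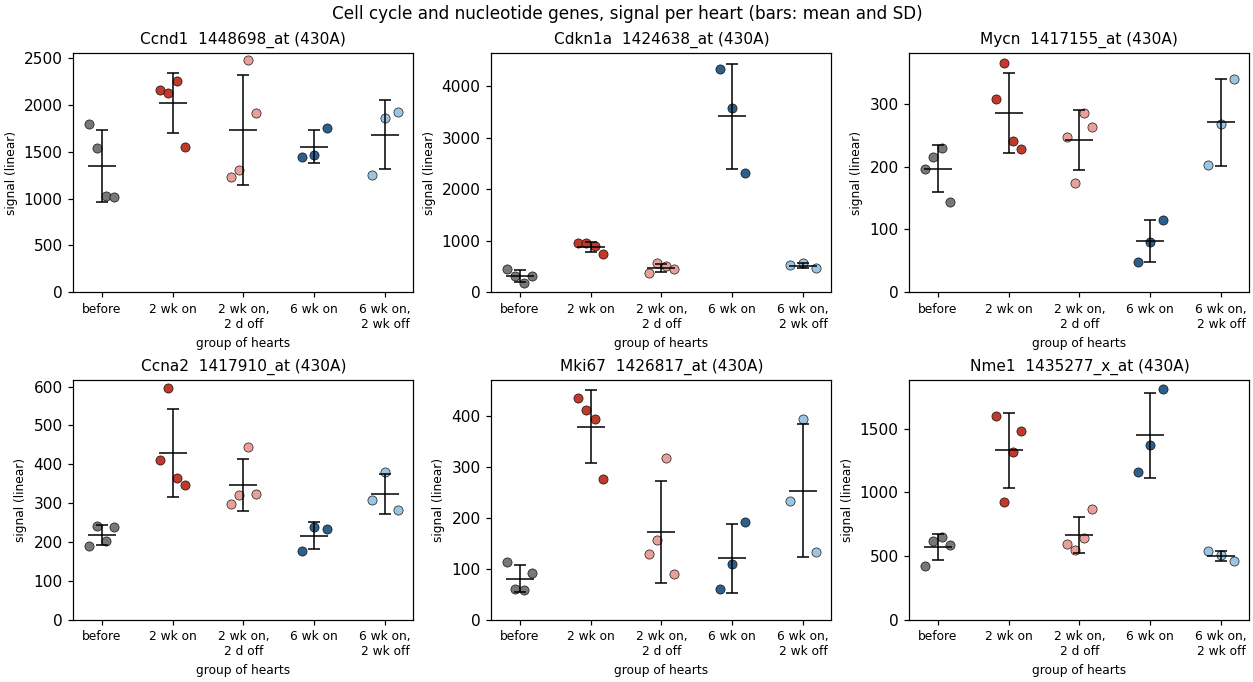
Linear signal per heart (dots, with mean and SD) of the cell cycle genes Ccnd1, Cdkn1a, Mycn, Ccna2 and Mki67 and of the nucleotide gene Nme1 in the 5 groups. Cdkn1a is highest and Mycn lowest in the 3 hearts at 6 weeks, whereas Ccna2 and Mki67 are highest at 2 weeks.

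The members varied together to different degrees. Pearson's r over the 18 hearts between each gene's brightest probe set on chip 430A and the mean profile of the other members was 0.80 for Mcm6, 0.66 for both Mcm3 and Mcm2, 0.55 for Mcm7, 0.49 for Mcm5, 0.43 for Mcm4 and 0.21 for Pcna. All hearts of a group share their treatment, so these values describe the pattern and carry no test. By brightest probe set, the genes with the pattern most like the mean of the members on chip 430A were Cstf2, a subunit of the RNA cleavage stimulation factor (r = 0.91), Kcnk2, a potassium channel (0.86), and Mtif2, a mitochondrial translation factor (0.83). Tpm4, a tropomyosin, followed with 0.83, Lig1, the ligase that joins Okazaki fragments, with 0.83, Mxd3 of the Myc and Max network with 0.81, Tpx2, a spindle protein, with 0.81, and Kif22, a mitotic kinesin, with 0.80. On chip 430B they were Adgra1 (0.82), C130073F10Rik (0.81) and 9130214F15Rik (0.77). Cstf2 was at 331.1 ± 37.1 before induction, 448.2 ± 19.0 at 2 weeks and 305.2 ± 23.4 after 2 days of repression (SD, n = 4 each).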

How the data were processed

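RNA of whole hearts, isolated with Ultraspec-II and labelled with biotin per the labels' protocols, was measured on Affymetrix chips 430A and 430B. The values the authors deposited are linear intensity, the MAS5 signal per probe set per the submitters' processing notes and were used as deposited. The sources name no version or scan date, so no batch could be set in the model. Calls of presence or absence were not used, and precision is limited by the number of arrays. Probe sets with a mean over the 18 hearts of at least 20% of the chip's 2% trimmed mean were kept (100.04 on 430A, 24.50 on 430B), which left 33084. After adding 10% of the trimmed mean (50.02 and 12.25), log2 signals were fitted with limma 3.58.1 (lmFit, eBayes with trend) in R 4.3.3, 1 model per chip over all 5 groups and 8 contrasts. Benjamini-Hochberg adjustment ran within a chip, and a probe set with adjusted p under 0.05 was called. The fit was tested on simulated data. Fold changes are therefore on the log2(signal + offset) scale. The labels give separate mice, but not litters. The members and lists were chosen with earlier results of these data known. From each list and comparison up to 3 called genes with the lowest adjusted p were named. Each was given by its brightest probe set past the limit, on 430A where possible. The 8 genes of 430A and 3 of 430B most like the members' mean profile were named as well. Further mitosis genes, cell type markers, and Cdt1, Cdc45 and Ccnd1 were named after their values were seen. Correlations of group deviations between same-numbered hearts ran from -0.16 to 0.33, and of 33 pairs 5 were over 0.1. The numbers were not used as pairs in the main fit. Hearts of different numbers were not compared, so the check cannot exclude that some numbers share a source of variation. Alternatives were the offset, the limit on dim values, 2 other scalings, the groups in the fit, a replicate block, the Actb ratio, and leaving out hearts. Those added after seeing the data left out hearts 3 and 4 before induction with heart 3 at 6 weeks, and, for the lists, hearts 3 and 4 before induction or single hearts.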

Additional observations from a re-analysis of the deposited data

Results flagged for a closer look

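Of 60 groups of 4 hearts of a member probe set, 6 had 1 heart far from the others by Dixon's criterion, where chance gives about 1 in 20. Mcm3 1426653_at read 278.2 in heart 2 before induction and 216.7 in heart 3 after 2 days of repression. Mcm5 1459658_at on chip 430B read 35.2 in heart 3 at 2 weeks. Mcm6 1447756_x_at on chip 430B read 40.9 in heart 4 before induction. Mcm7 1416030_a_at read 522.8 in heart 4 before induction, and Mcm7 1416031_s_at read 229.9 in heart 3 after 2 days of repression.

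The change on late repression differed from that on early repression for Mcm6, by 2.70 on the log2 scale, and for Pcna, by 1.30. Each was called by the interaction term in limma (adjusted p = 0.00551 and 0.0105). The length of induction, the length of repression and age differ together in this test and cannot be told apart. Mcm6 passed the limit on dim values only through the 2-week hearts, which the test uses.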

How the results depend on the processing

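Of 23 calls of a member in a comparison, 9 were kept in every alternative run, 14 were lost in at least 1 and none reversed. Those kept were 5 of Mcm6 (2 weeks, both falls from 2 weeks, the late level against before induction, late against early repression), Mcm5 at 2 weeks, and 3 of Pcna (6 against 2 weeks, late repression, late against early). Mcm6 was not tested at the 50% limit, and it passed the limit of the text's fit only through the 2-week hearts. All of its 5 calls but the late level use those hearts, so that they were kept supports nothing further. Counts of member probe sets called moved as follows. At 2 weeks the 7 became 3 with the limit on dim values at 50% of the trimmed mean, 2 without hearts 3 and 4 before induction, and 3 to 6 without single hearts. On early repression the 5 became 3 at the 50% limit, 8 with arrays scaled to a common median, 2 with the Actb ratio as a covariate, and 2 to 4 without single hearts. Against before induction the hearts after 2 days of repression had 0 to 1. At 6 weeks the 3 became 1 in the fit of the compared groups only, 1 with the Actb ratio, 1 without hearts 3 and 4 before induction, 0 in the added alternative and 1 to 3 without single hearts. From 2 to 6 weeks the 4 became 2 with no limit, 1 at the 50% limit, 2 in the fit of the compared groups only and 2 to 4 without single hearts. Late repression gave 1 to 2 without single hearts. At the 50% limit, which leaves 6 member probe sets and not Mcm6, the late level against before induction gave 0 and late against early repression 1. With the replicate block the counts were 7, 5, 0, 2, 4, 1, 1 and 2 in the order of the text. Of 384 counts of called genes in the pathway lists 53 moved by over 1.5 times under other offsets, limits or scalings, as did 105 of 552 as hearts were left out, an alternative added after seeing the data. Most lists hold few calls. The cause of these moves was not tested, except that a higher limit leaves fewer probe sets.

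Over all probe sets the calls at 2 weeks ranged from 524 to 2052 (1658 in the text's fit), on early repression from 2252 to 4358 (3219), after 2 days against before induction from 502 to 1698 (1069), at 6 weeks from 1763 to 4494 (4361), from 2 to 6 weeks from 360 to 1570 (1342), on late repression from 933 to 3622 (3605), after it against before induction from 276 to 1025 (851), and late against early from 71 to 335 (155). Scaling to a common median moved the median of all probe sets at 6 weeks from -0.08 to 0.07 on the log2 scale. Dim signals limit Mcm6 before induction and the 4 probe sets not tested.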
